A study of Mus musculus with 15 samples.

Results

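The mitochondrial stress response was followed through 10 genes: the matrix chaperones Hspd1, Hspe1, Hspa9 and Trap1, the proteases Clpp, Lonp1 and Afg3l2, and the transcription factors Atf4, Atf5 and Ddit3. A gene was taken as every probe set that carries its symbol and no other, which gave 12 probe sets for these 10 of the 19938 genes named on the array. All 10 passed the filter on low values, together with 12046 other genes. The genes were picked with differences between these same groups in view, so those differences are given as a description of the arrays.

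RNA came from the gastrocnemius, a calf muscle, of male C57BL/6 mice aged 12 months, each hybridised to an Affymetrix array of its own. Wildtype mice and mice lacking Sirt3, a deacetylase of the mitochondrial matrix, were fed a control diet or calorie restriction (CR). The wildtype groups held 3 control and 4 CR arrays, and the knockout groups 4 of each. The sources used here do not state how Sirt3 was deleted, whether in all tissues, or how strict and how long the restriction was. Values are log2 intensities, on which a difference of 1 is a doubling, and the differences below come from a linear model (limma) over 12056 genes with Benjamini-Hochberg adjusted p-values. The arrays ask whether CR, loss of Sirt3, or both together altered the transcripts that protect mitochondrial proteins.

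Proteins made in the cytosol enter mitochondria unfolded, are pulled in by Hspa9 and folded by the Hspd1 chamber with its lid Hspe1, while Clpp, Lonp1 and Afg3l2 break down those that fail to fold. When this system is overloaded, cells can raise its transcripts, a response known as the mitochondrial unfolded protein response. In mammals it runs largely through Atf4, Atf5 and Ddit3 (CHOP), whose translation increases when the initiation factor eIF2 is phosphorylated, so transcript levels show only part of their regulation.

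The array medians lay between 5.40 and 5.48. Sirt3 itself, read by 1 probe set, ranged from 6.38 to 6.68 on wildtype arrays and from 4.94 to 6.19 on knockout arrays, without overlap. The sources do not state whether it reads the deleted exons. A set of 9 skeletal muscle markers stood between 12.49 and 12.71 on every array. Some arrays also carried transcripts of other tissues. On wildtype control replicate 3 the mean of 21 male germ cell genes exceeded that of the median array by 4.02 log2 units, and on knockout control replicate 1 by 3.46. For 11 genes of the exocrine pancreas the excess was 7.08 on wildtype control replicate 2, and for 14 liver genes it was 2.59 on wildtype CR replicate 4, 1.56 on knockout control replicate 2 and 1.53 on wildtype control replicate 1. Values without the 2 germ cell arrays and without all 4 arrays past 2 log2 units are given where they bear on a result, and without the 4 arrays the wildtype control group has 1 array, which is assumed to vary like the others.

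Hspd1 and Hspe1 encode the chamber and the lid of one chaperonin, and their genes lie head to head. The stretch between their RefSeq start sites is shown because Hspd1 values were lower on CR in both genotypes, and Hspe1 values were low in knockout mice on CR only. Whether the patterns of these genes differ was not tested. It covers 215 bases at chr1:55087933-55088147 of GRCm38.p6, read on the plus strand, with Hspd1 starting to its left on the minus strand and Hspe1 to its right. RefSeq lists a further Hspd1 start inside Hspe1, to the right of this stretch, so transcription from it can cross the whole stretch. The capitals mark a run of alternating TTC and GAA units, the repeat bound by heat shock factor, together with the bases between the units.
Hspd1-Hspe1 stretch: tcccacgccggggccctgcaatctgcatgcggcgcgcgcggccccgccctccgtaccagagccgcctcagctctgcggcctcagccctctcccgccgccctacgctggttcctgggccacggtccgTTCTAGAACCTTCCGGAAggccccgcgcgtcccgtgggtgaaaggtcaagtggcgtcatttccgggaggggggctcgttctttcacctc
The run of 4 such units is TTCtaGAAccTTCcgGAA at chr1:55088059-55088076, where capitals mark the units alone. It begins 89 bases before the Hspe1 start, and read from the other strand it begins 144 bases before the Hspd1 start. The same spaced run of 4 units occurred in 4 of 32851 RefSeq windows of 250 bases before a start site, or 0.0122%. The overlapping windows of Hspe1 and of the Hspd1 start shown are both among these, through this same run. A run of 3 units, TTC and GAA in turn with 2 bases of any kind between them, searched on both strands, was in 0.466% of windows and, among the 10 windows found for 8 of the members, in 2: that of Hspe1 and that of the Hspd1 start shown here, but not that of the further Hspd1 start. In those 2 windows the run is the same stretch of DNA, read from either strand. The core TGATGNAA, bound by dimers of the Atf4 and CHOP type, was in 3.45% of windows and in 0 of the 10 windows.

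Hspd1, the chaperonin chamber, was lower on CR in both genotypes. In wildtype mice its log2 values were 9.06, 9.00 and 9.01 on the control diet and 8.84, 8.91, 8.73 and 8.62 on CR. Every CR array lay below every control array, and the control arrays lay close together. In knockout mice the values were 8.73, 9.03, 9.12 and 8.83 on the control diet and 8.75, 8.75, 8.64 and 8.52 on CR. Here the groups overlapped through knockout control replicate 1, a germ cell array, whose Hspd1 value lay among those of CR mice. In limma the wildtype difference with CR was -0.25 (SE 0.10, adjusted p = 0.303) and the knockout one -0.26 (SE 0.09, adjusted p = 0.287). Averaged over the genotypes it was -0.25 (SE 0.07, 95% interval -0.40 to -0.11), a ratio of 0.839, with a limma adjusted p of 0.0766 that missed the threshold of 0.05. The CR difference in knockout minus that in wildtype mice was -0.02, with an interval from -0.30 to 0.27.

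The averaged Hspd1 difference stayed between -0.29 and -0.22 over 26 alternative settings, with adjusted p-values from 0.054 to 0.244. A second probe set for Hspd1 gave -0.32 (SE 0.10, limma adjusted p = 0.0953). With CR it differed by -0.26 in wildtype mice (SE 0.14, limma adjusted p = 0.419) and by -0.39 in knockout mice (SE 0.13, limma adjusted p = 0.275). Hspd1 and Hspe1 have processed copies elsewhere in the genome, and the sources do not state where the probe sets lie, so signal from such copies cannot be told apart from that of the genes. In whole muscle, fewer cells of a type and less RNA per cell cannot be told apart either.

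**Figure D1:**
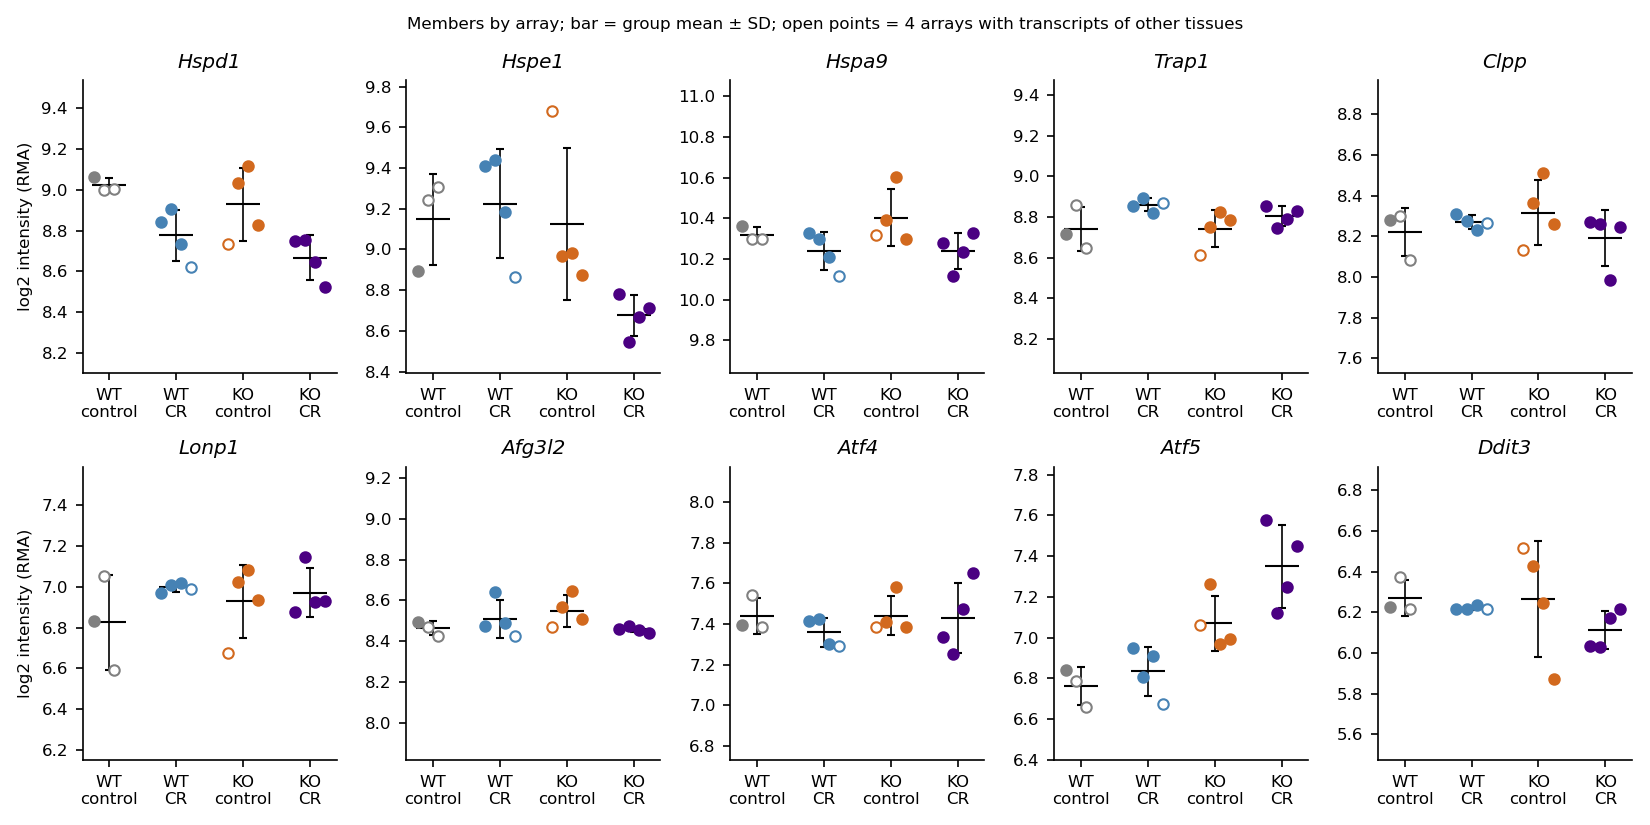
Log2 intensity of each of the 10 genes (vertical axis) on every array, by genotype and diet (WT, wildtype; KO, knockout), with group means ± SD as bars and open points for the 4 arrays with transcripts of other tissues. Atf5 is above the wildtype arrays on all 8 knockout arrays, Hspe1 is lowest on the 4 knockout CR arrays, and Hspd1 is lower on CR in both genotypes.

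Hspe1, the chaperonin lid, was low in 1 group only by its values, knockout mice on CR. Its log2 values were 8.78, 8.54, 8.67 and 8.71 in that group, against 9.41, 9.44, 9.18 and 8.86 in wildtype mice on CR. On the control diet they were 9.68, 8.97, 8.98 and 8.87 in knockout mice and 8.89, 9.25 and 9.31 in wildtype mice. The knockout CR arrays lay below all 11 others, while the other 3 groups overlapped. The difference between genotypes on CR was -0.55 (SE 0.17, 95% interval -0.91 to -0.19, limma adjusted p = 0.698), a ratio of 0.684. On the control diet it was -0.02 (SE 0.18, 95% interval -0.41 to 0.37, limma adjusted p = 0.986).

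With CR, Hspe1 differed by -0.45 in knockout mice (SE 0.17, limma adjusted p = 0.320). In wildtype mice it differed by 0.08 (SE 0.18, limma adjusted p = 0.868). The test of the difference between these responses gave -0.53 (SE 0.25, limma adjusted p = 0.863). The second Hspe1 probe set gave -0.56 (SE 0.16, limma adjusted p = 0.573) between genotypes on CR and -0.44 (SE 0.16, limma adjusted p = 0.296) with CR in knockout mice.

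Hspe1 was the gene of the 10 that moved most with the arrays carrying other tissues. The germ cell array knockout control replicate 1 held the highest Hspe1 value of all, and without it the CR difference in knockout mice was -0.27. Without the 2 germ cell arrays the difference between genotypes on CR was -0.55 (SE 0.12, limma adjusted p = 0.167). Without the 4 arrays it was -0.67. Of the groups compared, that fit left out wildtype CR replicate 4 alone, which had the lowest Hspe1 value of its group, 8.86. In that fit the CR difference in wildtype mice was 0.45 (SE 0.12, limma adjusted p = 0.379), and it rested on the single array left for wildtype controls, which had the lowest Hspe1 value of its group. What part the other tissues had in these values was not tested.

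**Figure D2:**
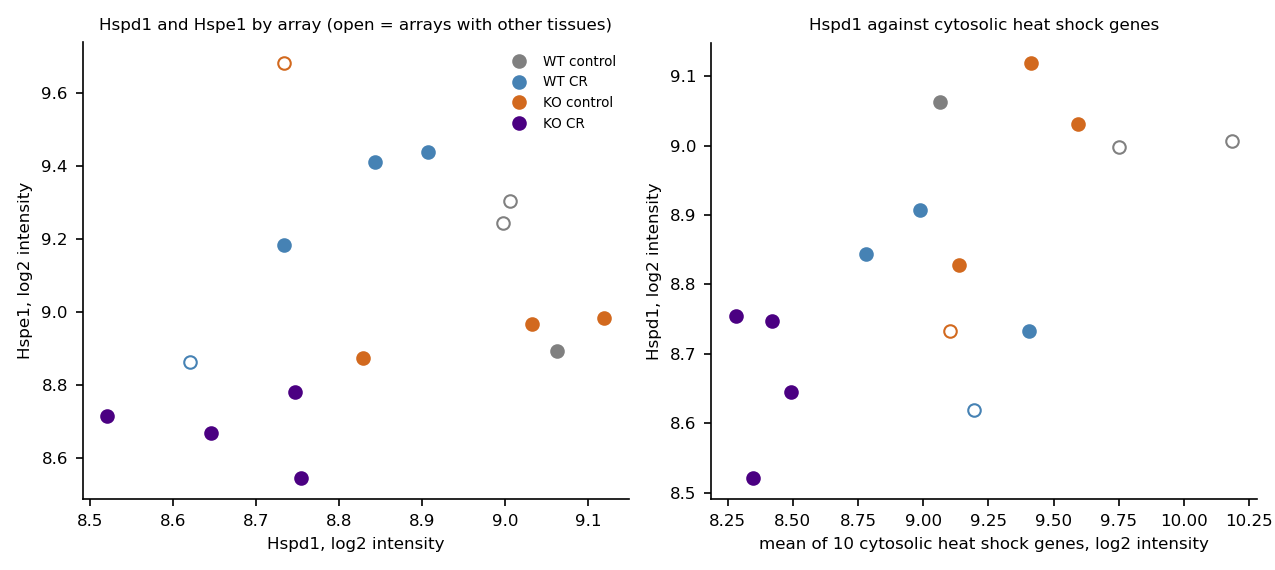
Left, log2 intensity of Hspe1 (vertical) against Hspd1 (horizontal) on each of the 15 arrays; right, Hspd1 (vertical) against the mean log2 intensity of 10 cytosolic heat shock genes (horizontal), with colours for the groups and open points for the arrays with other tissues. The 4 knockout CR arrays are at the lower left of both panels, and knockout control replicate 1 has the highest Hspe1 value, 9.68.

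Hspa9, the matrix Hsp70 that drives protein import, had similar levels in the 4 groups. Its values were 10.36, 10.30 and 10.30 in wildtype controls, 10.33, 10.30, 10.21 and 10.12 on CR, 10.32, 10.39, 10.60 and 10.30 in knockout controls and 10.28, 10.12, 10.23 and 10.33 in knockout mice on CR. All 4 groups overlapped. With CR it differed by -0.08 in wildtype mice (SE 0.08, limma adjusted p = 0.660) and by -0.16 in knockout mice (SE 0.08, limma adjusted p = 0.412). Trap1, a matrix chaperone of the Hsp90 family, lay between 8.61 and 8.90 on all arrays. With CR it differed by 0.12 in wildtype mice (SE 0.07, limma adjusted p = 0.447) and by 0.06 in knockout mice (SE 0.06, limma adjusted p = 0.706), both above 0 where those of Hspd1 were below.

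The 3 proteases differed by small amounts. Clpp, the peptidase of the ClpXP complex, had group means of 8.22 ± 0.12 (SD, n = 3) in wildtype controls, 8.27 ± 0.03 (SD, n = 4) on CR, 8.32 ± 0.16 (SD, n = 4) in knockout controls and 8.19 ± 0.14 (SD, n = 4) in knockout mice on CR. Lonp1, the protease that clears oxidised matrix proteins, had means of 6.83 ± 0.23 (SD, n = 3), 7.00 ± 0.02 (SD, n = 4), 6.93 ± 0.18 (SD, n = 4) and 6.97 ± 0.12 (SD, n = 4) in the same order. Afg3l2, a subunit of the m-AAA protease of the inner membrane, had means of 8.46 ± 0.03 (SD, n = 3), 8.51 ± 0.09 (SD, n = 4), 8.55 ± 0.08 (SD, n = 4) and 8.46 ± 0.01 (SD, n = 4). The groups of each protease overlapped in every comparison, and the 4 Lonp1 values of wildtype CR mice lay within the spread of their controls. Among differences between 2 groups, the one furthest from 0 was that of Lonp1 with CR in wildtype mice, at 0.17 (SE 0.11, 95% interval -0.07 to 0.41, limma adjusted p = 0.501). For the genotype differences of the 3 proteases the 95% intervals reached no further than -0.26 and 0.34 on either diet.

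Atf5, the transcription factor that can induce mitochondrial chaperones and proteases, was higher in knockout muscle on both diets. Its log2 values were 6.84, 6.79 and 6.66 in wildtype controls and 6.95, 6.81, 6.91 and 6.67 in wildtype mice on CR. In knockout mice they were 7.06, 7.26, 6.97 and 6.99 on the control diet and 7.58, 7.12, 7.25 and 7.45 on CR. All 8 knockout arrays lay above all 7 wildtype arrays, by a narrow margin, since the highest wildtype value was 6.95 and the lowest knockout value 6.97. The difference was 0.31 (SE 0.11, 95% interval 0.07 to 0.54, limma adjusted p = 0.612) on the control diet and 0.52 (SE 0.10, 95% interval 0.30 to 0.73, limma adjusted p = 0.188) on CR. Averaged over the diets it was 0.41 (SE 0.07, limma adjusted p = 0.318), a ratio of 1.33, and stood at rank 2 of 12056 genes by p. None of these 3 values passed the threshold after adjustment over all genes.

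Genes on which every knockout array lay above every wildtype array were 2 of 12056 (0.0166%), and 1 gene (0.00829%) lay below on every knockout array. These 3 were named after their values were seen: Cox8b, the muscle form of a cytochrome oxidase subunit, and Atf5 were above, and Sirt3 was below. Sirt3 is the deleted gene, so its separation and its chromosome were set by the design. Cox8b and Atf5 are also on its chromosome 7, which holds 8.11% of the tested genes with a RefSeq chromosome. Both were picked by these values, so nothing is read from this share. The origin and backcrossing of the knockout line are not stated in the labels, so for genes on this chromosome loss of Sirt3 and DNA inherited with the knockout allele cannot be told apart. In the RefSeq annotation of GRCm38.p6, Cox8b and Sirt3 are separated by 1 protein-coding gene, whereas 1047 lie between Atf5 and Sirt3. Cox8b differed by 0.37 (SE 0.06, limma adjusted p = 0.136) averaged over diets, with values of 12.07 to 12.37 in wildtype and 12.41 to 12.76 in knockout mice.

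Without the 4 arrays with other tissues, the Atf5 difference was 0.23 on the control diet and 0.46 on CR, so it remained above 0. Over 27 alternative settings the difference on CR ranged from 0.44 to 0.59, with adjusted p-values from 0.102 to 0.582. With CR, Atf5 differed by 0.28 in knockout mice (SE 0.10, limma adjusted p = 0.300) and by 0.07 in wildtype mice (SE 0.11, limma adjusted p = 0.785). The test of the difference between these responses gave 0.21 (SE 0.15, 95% interval -0.11 to 0.53, limma adjusted p = 0.924).

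Atf4, the main effector of eIF2 phosphorylation, had overlapping values in all groups. Its values were 7.39, 7.54 and 7.39 in wildtype controls, 7.41, 7.43, 7.30 and 7.29 on CR, 7.39, 7.41, 7.58 and 7.39 in knockout controls and 7.34, 7.25, 7.47 and 7.65 in knockout mice on CR. None of the groups stood apart, and the genotype differences were 0.00 (SE 0.09, 95% interval -0.19 to 0.19) on the control diet and 0.07 (SE 0.08, 95% interval -0.11 to 0.25) on CR. Ddit3, which encodes CHOP, ranged from 5.87 to 6.52. The largest of its differences between groups was -0.15 (SE 0.11, limma adjusted p = 0.593), with CR in knockout mice, and its groups overlapped. On 5 arrays, 3 of them of wildtype CR mice, the deposited Ddit3 value was exactly 6.21417.

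**Figure D3:**
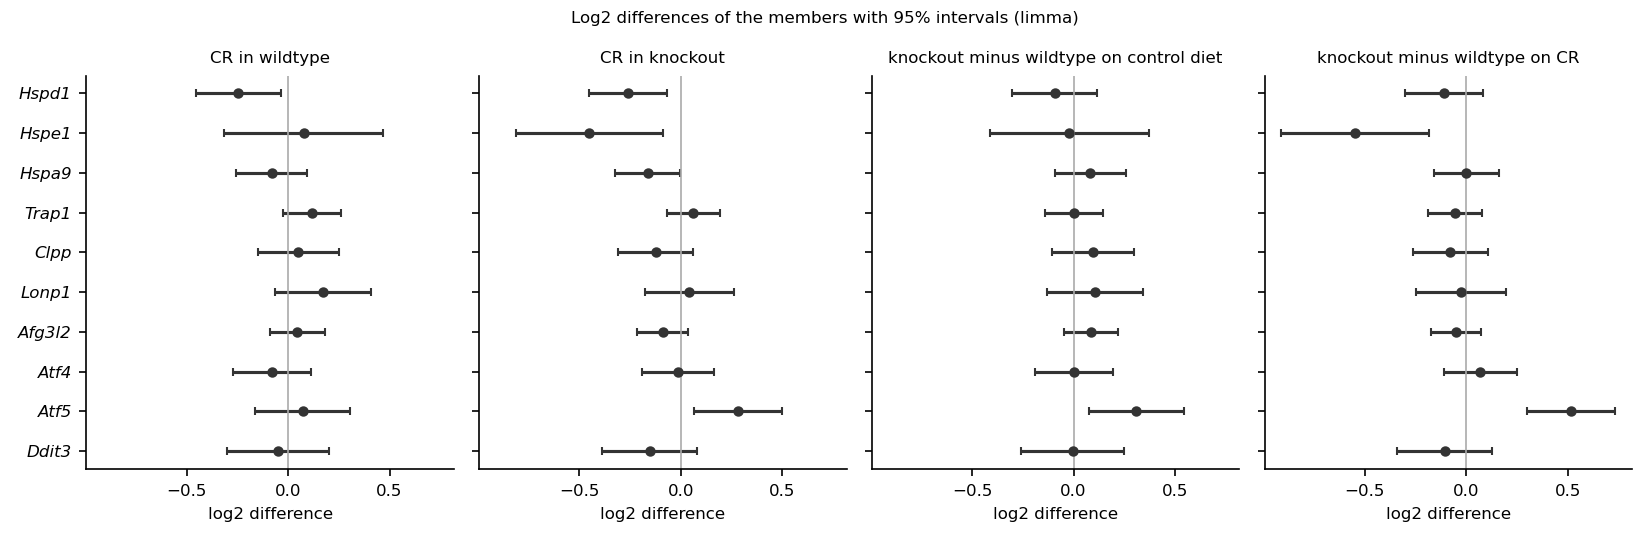
Log2 differences of the 10 genes (horizontal axis) with 95% intervals from limma, for CR in each genotype and for knockout minus wildtype on each diet. For CR in wildtype mice the interval of Hspd1 alone lies off 0, in knockout mice those of Hspd1, Hspe1, Hspa9 and Atf5, on the control diet that of Atf5, and between genotypes on CR those of Hspe1 and Atf5; no adjusted p is under 0.05.

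Counted over the set, 0 of the 10 genes passed the threshold with CR in wildtype mice, where 0.124% of all genes did, and 0 with CR in knockout mice, where 0.0664% did. The count was also 0 for CR averaged over genotypes (1.07% of all genes), for the difference between the CR responses (0% of all genes), and for knockout against wildtype on the control diet (0%), on CR (0.0166%) and averaged (0%). At an unadjusted limma p under 0.05 there was 1 gene of the 10 with CR in wildtype mice (13.1% of all genes), 4 with CR in knockout mice (12% of all genes) and 3 with CR averaged (20.1%). By the same measure there were 0 for the difference between responses (5.71%), 1 for the genotypes on the control diet (7.03%), 2 on CR (5.92%) and 2 averaged (7.18%). Since the genes were picked from these contrasts, nothing is read from these counts.

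Groups without overlap were seen for Hspd1 with CR in wildtype mice (lower, as for 2.95% of all genes, and 0 members higher, against 9.55%) and Hspe1 with CR in knockout mice (lower, 3.08%, and 0 higher, against 3.91%). Between genotypes they were seen for Atf5 on the control diet (higher, 3.71%, and 0 lower, against 1.29%), and on CR for Atf5 (higher, 1.84%) and Hspe1 (lower, 2.76%). The median difference of the 10 genes was 0.05 with CR in wildtype mice, against 0.04 for all genes, and -0.11 with CR in knockout mice, against 0.01. Between genotypes it was 0.04 on the control diet, against 0.02, and -0.05 on CR, against -0.01.

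Whether the 10 genes varied together from mouse to mouse was examined within groups, after each value was centred on its group mean, which removes the differences used to pick the genes. Over 45 pairs and 15 arrays, 0 passed after Benjamini-Hochberg adjustment of exact within-group permutation p-values. Hspd1 and the protease subunit Afg3l2 had the highest correlation, with Pearson's r = 0.81 (exact permutation p = 0.0017, adjusted 0.0787) and Spearman's rho = 0.82 (exact permutation p = 0.0023, adjusted 0.105). Without the 2 arrays farthest from the median r was 0.70, and without the 4 arrays with other tissues 0.69. Hspa9 and Atf4 followed at r = 0.71 (exact permutation p = 0.0044, adjusted 0.10) and rho = 0.74 (exact permutation p = 0.0084, adjusted 0.158).

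For Hspd1 with Hspe1, whose start sites lie side by side, r within groups was -0.14 (exact permutation p = 0.777, adjusted 0.889) and rho = 0.03 (exact permutation p = 0.943). The sign of this value turned without knockout control replicate 1, where r was 0.43, and without the 4 arrays, where it was 0.38. The lowest pair was Hspe1 with Lonp1, at r = -0.53 (exact permutation p = 0.104, adjusted 0.339) and rho = -0.43 (exact permutation p = 0.134, adjusted 0.507).

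**Figure D4:**
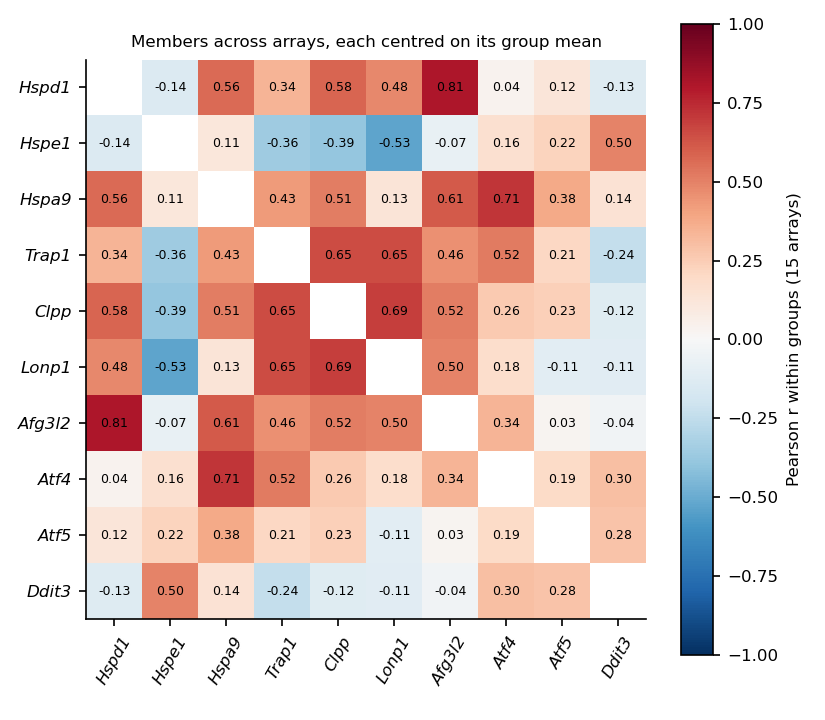
Pearson's r between each pair of the 10 genes over 15 arrays, after centring each gene on its group mean; red is positive and blue negative. Hspd1 with Afg3l2 (0.81) and Hspa9 with Atf4 (0.71) are the deepest red, while the Hspe1 row is mostly pale or blue apart from Ddit3 (0.50).

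The genes with the most similar values over all 15 arrays, group differences included, were taken as the 2 highest Pearson correlations among 12046 genes. For Hspd1 they were Styx (r = 0.92) and Tbc1d1 (0.88), for Hspe1 Cgref1 (0.91) and Klhl41 (0.91), for Hspa9 As3mt (0.87) and Ndufab1 (0.86), and for Trap1 Xrn1 (0.93) and Neurl2 (0.91). For Clpp they were St7 (0.94) and Sulf2 (0.92), for Lonp1 Mfsd8 (0.92) and Dolk (0.90), and for Afg3l2 Mrpl14 (0.86) and Isca1 (0.86). For Atf4 they were Mir7-1 (0.81) and Tbcb (0.76), for Atf5 Slc32a1 (0.88) and Fblim1 (0.82), and for Ddit3 Stk40 (0.87) and Tmem30a (0.79). The search left out the 10 genes themselves. Each match is the top of all these correlations, over arrays that share the same groups and the same transcripts of other tissues.

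The wider pathway was read from 6 lists with 92 tested genes. Of 16 other mitochondrial chaperones and import helpers, 0 passed in any comparison. With CR in wildtype mice 13 of the 16 had values above 0, where 37.7% of all genes were below 0. The median was 0.09, against 0.04 for all genes. The smallest p-values were those of Phb2, a prohibitin, at 0.22 (SE 0.07, limma adjusted p = 0.233) and Timm50, an import receptor, at 0.25 (SE 0.09, limma adjusted p = 0.239). On the control diet Grpel1, the exchange factor of Hspa9, was at 8.26, 8.24 and 8.06 in wildtype and 8.37, 8.46, 8.60 and 8.33 in knockout mice, a difference of 0.25 (SE 0.09, limma adjusted p = 0.599). Its groups did not overlap. For the difference between CR responses 15 of the 16 were below 0, as were 56.9% of all genes. The median was -0.13, against -0.03 for all genes.

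Of 15 other mitochondrial proteases and peptidases, 1 passed, with CR averaged over genotypes, where 1.07% of all genes did. Immp1l, a subunit of the inner membrane peptidase that trims imported proteins, rose by 0.22 with CR averaged over genotypes (SE 0.04, limma adjusted p = 0.033). Its values were 7.50, 7.56 and 7.60 in wildtype controls and 7.82, 7.84, 7.83 and 7.85 on CR, and 7.56, 7.70, 7.72 and 7.52 in knockout controls and 7.79, 7.79, 7.70 and 7.89 on CR. The wildtype groups were far apart for their spread, and the knockout groups overlapped. Without the 2 germ cell arrays the limma adjusted p was 0.073, and without the 4 arrays 0.215, and with 1 array left out the call held in 6 of 15 fits. Pmpca, a subunit of the matrix processing peptidase, differed by 0.26 with CR in wildtype mice (SE 0.07, limma adjusted p = 0.171).

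Of 29 genes known as Atf4 targets, 0 passed in any comparison. Their median difference was 0.04 with CR in wildtype mice and 0.06 in knockout mice, against 0.04 and 0.01 for all genes, and 0.01 between genotypes on each diet. The gene with the smallest p was Atf3, a stress-induced transcription factor, which was at 9.23, 10.37 and 10.14 in wildtype controls and 8.09, 8.58, 9.54 and 10.03 on CR. In knockout mice it was at 8.26, 10.16, 10.39 and 9.36 on the control diet and 6.69, 6.28, 8.20 and 7.49 on CR. Every knockout CR array lay below every knockout control, while knockout and wildtype mice on CR overlapped, and the arrays of each group spread widely. The CR difference in knockout mice was -2.38 (SE 0.54, limma adjusted p = 0.149), and -2.80 (SE 0.45, limma adjusted p = 0.035) without the 4 arrays with other tissues, a fit in which 0.274% of all genes passed.

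Asns, asparagine synthetase, differed by -1.15 with CR in wildtype mice (SE 0.41, limma adjusted p = 0.254). Its wildtype control values were 6.72, 8.30 and 7.97, of which the higher ones came from the acinar and the germ cell array, and in knockout controls the germ cell array was highest at 7.67 against 6.15 to 6.26 on the others. Without the 4 arrays the difference was -0.11 (SE 0.33). Aldh1l2, a mitochondrial folate enzyme, was at 5.57, 5.53, 5.60 and 5.44 in knockout controls and 6.12, 5.97, 5.89 and 5.71 in knockout mice on CR, a difference of 0.39 (SE 0.12, limma adjusted p = 0.251) without overlap. Of 8 genes of eIF2 kinases, phosphatase subunits and partners, 0 passed. Eif2ak1, the kinase that relays mitochondrial stress, differed by -0.15 with CR in knockout mice (SE 0.07, limma adjusted p = 0.411).

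With all arrays, the cytosolic heat shock genes had the median furthest from 0 of the 6 lists in every comparison. Without the 2 germ cell arrays this did not hold with CR in wildtype mice (-0.19, against -0.20 for the endoplasmic reticulum stress list). Nor did it hold between genotypes on the control diet (0.00, against -0.19). There the heat shock median was -0.19 with all arrays and 0.37 without the 4 arrays. That last fit left wildtype control replicate 1 alone in its group. Its list mean was 9.07, against 9.75 and 10.19 on the other wildtype controls. Of 10 tested, 1 fell with CR in knockout mice (0.0664% of all genes passed) and 4 fell with CR averaged over genotypes (1.07%). All 10 had values below 0 in both comparisons, as had 47.0% and 40.5% of all genes. The gene that fell with CR in knockout mice was Hspb1, at -1.47 (SE 0.18, limma adjusted p = 0.0131), a small heat shock protein abundant in muscle. The list median was -0.84 with CR in knockout mice, against 0.01 for all genes, and -0.43 in wildtype mice, against 0.04. Hspb1 was at 12.02, 11.85, 11.93 and 11.52 in knockout controls and 10.43, 10.05, 10.64 and 10.30 in knockout mice on CR, against 11.61, 11.66, 11.50 and 11.70 in wildtype mice on CR. The knockout CR arrays stood apart from every other array. The difference between genotypes on CR was -1.26 (SE 0.18, limma adjusted p = 0.0406), and it was -1.24 (SE 0.13, limma adjusted p = 0.009) without the 4 arrays. With 1 array left out, the CR call in knockout mice held in 13 of 15 fits and was lost without knockout CR replicate 1 or 2. The call between genotypes on CR held in 4 of 15 fits, with limma adjusted p-values up to 0.217. It was lost whichever wildtype CR array was left out, and without knockout CR replicate 1, 2 or 4. In fits that left out an array of a group not compared, the difference itself could not change, so 15 overstates the number of checks.

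With CR averaged over genotypes, the limma differences of those that fell were -0.87 for Hspb1 (SE 0.13, adjusted p = 0.0127), -0.30 for Hspa4, a relative of Hsp110 (SE 0.06, adjusted p = 0.0313), -0.63 for the co-chaperone Bag3 (SE 0.13, adjusted p = 0.0348) and -1.19 for the inducible Hsp90 gene Hsp90aa1 (SE 0.25, adjusted p = 0.0461). With 1 array left out, the Hspb1 call held in 15 of 15 fits, that of Hspa4 in 7, that of Bag3 in 3 and that of Hsp90aa1 in 2, with adjusted p-values up to 0.0940. Without the 4 arrays the averaged Hspb1 difference was -0.57 (limma adjusted p = 0.140). In that fit the list median with CR was 0.13 in wildtype and -0.86 in knockout mice, so the direction turned in wildtype mice and not in knockout mice. The wildtype value rested on the single control array left, which had the lowest list mean of its group.

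The knockout CR arrays were low both in the cytosolic heat shock list and in Hspe1. Within groups, over all 15 arrays, the list's correlation with either chaperonin gene was near 0. That with Hspe1 depended on the arrays used. The list mean was 8.42, 8.28, 8.49 and 8.35 on those arrays and from 8.78 to 10.19 on the 11 others. Centred on group means, its correlation with Hspd1 was r = 0.01 (exact permutation p = 0.963, adjusted 0.988) and rho = 0.04 (exact permutation p = 0.910, adjusted 0.958). With Hspe1 it was r = -0.00 (exact permutation p = 0.988, adjusted 0.988) and rho = -0.12 (exact permutation p = 0.734, adjusted 0.958). Without the 2 arrays farthest from the median of the list, r was 0.14 for Hspd1 and -0.46 for Hspe1. Without the 4 arrays with other tissues it was 0.04 for Hspd1 and -0.27 for Hspe1. These correlations are part of 20 relations, 10 genes against 2 list means, chosen after the values were seen. The only relation past the threshold was Trap1 with the mean of the Atf4 targets, at r = 0.93 (exact permutation p = 0.0015, adjusted 0.0294) and rho = 0.83 (adjusted 0.0899). Atf4 itself had r = 0.54 (exact permutation p = 0.024, adjusted 0.240) and rho = 0.67 (exact permutation p = 0.0090, adjusted 0.0899) with that mean. Without the 2 farthest arrays r was 0.85 for Trap1 and 0.52 for Atf4. Without the 4 arrays with other tissues it was 0.65 for Trap1 and 0.73 for Atf4.

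**Figure D5:**
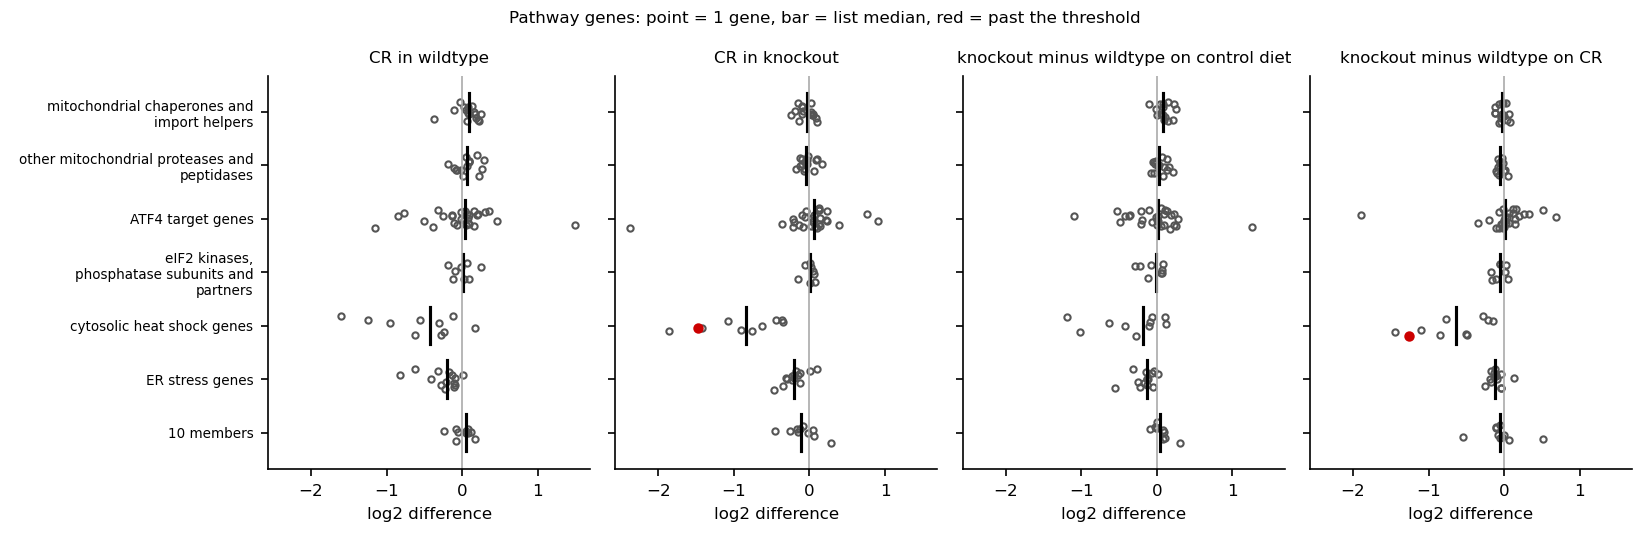
Log2 difference (horizontal axis) of every tested gene of 6 pathway lists and of the 10 genes, in 4 comparisons; each point is 1 gene, bars are list medians, and red points passed the threshold. The mitochondrial lists lie close to 0, and the cytosolic heat shock genes lie to the left, with a median of -0.84 with CR in knockout mice and -0.64 between genotypes on CR.

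Of 14 genes of the endoplasmic reticulum stress response, 0 passed in any comparison. With CR in wildtype mice 13 of the 14 were below 0 (37.7% of all genes), with a median of -0.20 against 0.04 for all genes. In knockout mice 12 were (47.0% of all genes), with a median of -0.21 against 0.01. Hspa5, the main chaperone of that compartment, was at 9.46, 9.27, 9.21 and 9.08 in knockout controls and 9.05, 8.97, 9.01 and 8.83 on CR, a difference of -0.29 (SE 0.10, limma adjusted p = 0.293). Its 2 groups did not overlap. Creld2 was at 6.91, 7.60 and 8.35 in wildtype controls, highest on the germ cell array, and between 6.71 and 6.88 in wildtype mice on CR. Without the 4 arrays the list median with CR in wildtype mice was 0.00, with 7 genes on either side of 0, and in knockout mice it was -0.14.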

How the data were processed

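RNA labelled with biotin was hybridised to 15 arrays, 1 mouse each, per the labels. The authors deposited log2 values for 35556 probe sets, processed with RMA per the submitters' processing notes (version not given in the sources used here); no scan or hybridisation batch could be read from the sources. Of the probe sets, 21789 had 1 gene symbol in the platform annotation, 1621 several and 12146 none listed here. A gene was its probe set with the highest mean, kept if that mean reached 5.32, the 40th percentile over probe sets in the annotation, which left 12056 genes.

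limma 3.58.1 (R 4.3.3) gave the differences from a fit of 4 group means to all 15 arrays (residual df 11), two-sided, Benjamini-Hochberg adjusted within each of 7 contrasts with a threshold of 0.05. P-values measure the spread between these mice. Pair correlations were tested by enumerating all 82944 orders of arrays within groups. On simulated data the fit recovered 60% of genes changed by 0.5 log2 units for CR in wildtype mice, 78% for CR in knockout mice, 30% for the difference of responses, and 75% and 60% for the genotypes on the control diet and on CR. The simulation changed a set of genes by 0.5 or 1 log2 units, with normal noise drawn independently for each gene and array. More genes were changed there than passed in any contrast here, which eases the adjusted threshold. The shares describe that setting and may be too high for these arrays.

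The members and the pathway lists (104 entries, 96 matched, 92 tested) were chosen with earlier results of these data known. Genes named are the 10 members, Sirt3, up to 4 genes past the threshold and the 2 with the smallest p in each list and contrast, and the 2 genes most like each member, with a selection of these printed; Cox8b was named after its values were seen. Sequences are from RefSeq, GRCm38.p6.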

Additional observations from a re-analysis of the deposited data

Results flagged for a closer look

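Of 30 groups of 4 arrays, 4 had 1 array far from the other 3, measured as the gap to the nearest array over the whole range; chance gives about 1 such group in 20. Hspe1 was 9.68 on knockout control replicate 1, an array with germ cell transcripts, against 8.87 to 8.98 on the other knockout controls, and what part those transcripts had in it was not tested. Clpp was 7.99 on knockout CR replicate 3, against 8.25 to 8.27 on the others of its group. Atf4 was 7.58 on knockout control replicate 3, against 7.39 to 7.41. Ddit3 was 6.23 on wildtype CR replicate 3, where the other 3 arrays held exactly the same deposited value, 6.21417.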

How the results depend on the processing

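The 70 differences of the 10 genes were refitted under 27 alternatives in all. Of 1860 refits, 1858 moved by less than 1 SD between arrays, and 74 changed sign. For 48 differences no refit changed the sign. Many refits could not move a difference, because they changed only the filter or the estimate of the spread, or left out an array of a group not compared. These counts are therefore no measure of how stable the differences are. The 2 refits that moved by more than 1 SD were those of Hspe1 without the 4 arrays with other tissues, at 0.45 with CR in wildtype mice and 0.09 with CR averaged over genotypes. Only in that setting did a member pass the threshold, Hspe1 between genotypes on CR. That fit left 1 wildtype control array, and the wildtype CR array it left out had the lowest Hspe1 value of its group. The share of all genes passing in that fit is not given here, and nothing is read from this pass. Replicate numbers gave little sign of pairing. After centring on group means, the median correlation was 0.01 for same-numbered pairs of arrays and -0.01 for the others. Of 21 same-numbered pairs, 7 correlated above 0.1, and 2 of 15 arrays correlated best with their own number. The same-numbered pairs ranged from -0.64 to 0.50, the highest being wildtype CR with knockout CR replicate 3, so pairing of single arrays is not excluded. With the replicate number as a block, 0 members passed in every comparison. The count of correlated member pairs, 0 of 45, became 4 after centring each array on its median and 2 with the replicate block, and ranged from 0 to 2 when 1 array was left out: 2 pairs passed without wildtype control replicate 2 and 1 pair without wildtype CR replicate 1. The r of Hspd1 with Hspe1 turned positive as Spearman's rho (0.025), without the 4 arrays (0.38) and without knockout control replicate 1 (0.43), and ranged from -0.43 to 0.43 when 1 array was left out. The cause of these changes was not tested. Of simulated differences of 0.5, 30% were recovered for the difference between CR responses, 60% to 78% for differences between 2 groups, and 84% and 89% for the averaged ones. In that simulation small differences between the CR responses were the least detectable. Its shares may be too high for these arrays, since more genes were changed in it than passed here.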
